A study of Mus musculus with 32 samples.

Results

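The electrical properties of a muscle fibre are set by ion channels in its surface membrane, the sarcolemma. RNA levels of 8 genes for such channels or their subunits were followed in GAS muscle, the gastrocnemius of the calf, after the sciatic nerve was cut. The genes were Scn4a, Scn4b, Clcn1, Kcnj2, Kcnj11, Kcna7, Kcnc1 and Kcnn3. They were chosen by name, as 8 of the 33397 genes in the deposited table. No threshold on a value was used, but earlier results of these data were known when the set was drawn up, so the counts below describe these genes and are no independent test. All 8 were found there, and all 8 passed the filter on low values described below.

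The 32 samples came from C57BL/6 mice (C57BL/6J in the methods) and formed 8 groups of 4, taken at 0, 1, 3, 5, 7, 14, 21 and 28 d. The sample labels give sciatic nerve transection as the treatment of every group, 0 d included, whereas the columns of the table mark the 4 samples of 0 d with a C. The 0 d group was used here as the reference. No later day had a control group of its own, so denervation cannot be told apart from time since surgery or the age of the mice. According to the study's methods the mice were males, and the labels name no engineered allele in these samples. Whole muscle was used, so each sample held all of its cell types. The labels' extraction text names retinas, but the RNA was that of muscle. The summed level of 10 skeletal muscle fibre genes lay between 32780 and 36597 FPKM at 0 d, and 9 measured retina genes together reached at most 1.95 FPKM in any sample. FPKM is the number of fragments of a gene relative to the length of its exons and to the total of the sample, so levels of different genes can be compared on it.

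When a motor nerve fires, the sodium channels of the sarcolemma open and carry the action potential along the fibre. Chloride and potassium channels then return the membrane to its resting level and hold it there. A muscle that has lost its nerve is known to become more excitable and to fibrillate, that is, to fire spontaneously. Scn4a encodes the pore of the adult skeletal muscle sodium channel, and Scn4b encodes an auxiliary beta subunit. Clcn1 encodes the chloride channel that provides most of the resting chloride conductance of muscle, and its loss causes myotonia. Kcnj2 encodes an inward rectifier potassium channel that stabilises the resting potential. Kcnj11 encodes the pore of the KATP channel, which opens when ATP falls. Kcna7 and Kcnc1 encode voltage-gated potassium channels. Kcnn3 encodes the small-conductance calcium-activated potassium channel SK3, which is known from immature and denervated muscle and is blocked by apamin.

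The genes lie on 5 chromosomes in GRCm38, with gene bounds from GENCODE mouse release 21. Scn4a (ENSMUSG00000001027) is on the minus strand of chromosome 11, from 106318592 to 106353288. Kcnj2 (ENSMUSG00000041695) is on the same chromosome on the plus strand, from 111066164 to 111076821. Scn4b (ENSMUSG00000046480) is on chromosome 9 from 45138395 to 45154152, plus strand. Clcn1 (ENSMUSG00000029862) is on chromosome 6 from 42286685 to 42315756, plus strand. Kcnn3 (ENSMUSG00000000794) is on chromosome 3 from 89520164 to 89675132, plus strand. The other 3 genes are on chromosome 7: Kcna7 (ENSMUSG00000038201, 45405653 to 45409763, plus), Kcnj11 (ENSMUSG00000096146, 46093953 to 46100764, minus) and Kcnc1 (ENSMUSG00000058975, 46396497 to 46438704, plus). Exons of Clcn1 share 445 bases with Fam131b on the opposite strand, and the sources used here do not say whether strand was used in counting. Fam131b itself had group means of 0.381 to 0.534 FPKM, far below those of Clcn1.

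Promoter sequences from RefSeq (GRCm38.p6) were matched for 7 of the 8 genes, all but Kcnj11. The 250 bases before the start of transcription are shown for 3 genes whose RefSeq and GENCODE starts coincide: Clcn1 and Kcnj2, which fell after denervation, and Kcnn3, which rose. Capitals mark matches to CANNTG, to CTANNNNTAG, a site of the MEF2 kind, and to TATAAA, on either strand. CANNTG is the general E-box, and myogenic factors are only some of the factors that bind it. The window of Clcn1 is chr6:42286435-42286684, that of Kcnj2 is chr11:111065914-111066163 and that of Kcnn3 is chr3:89519914-89520163, all on the plus strand.
Clcn1: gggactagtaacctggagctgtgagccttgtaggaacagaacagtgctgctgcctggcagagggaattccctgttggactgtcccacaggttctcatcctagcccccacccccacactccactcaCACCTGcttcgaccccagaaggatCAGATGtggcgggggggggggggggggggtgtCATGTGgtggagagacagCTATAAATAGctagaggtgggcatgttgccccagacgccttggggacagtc
Kcnj2: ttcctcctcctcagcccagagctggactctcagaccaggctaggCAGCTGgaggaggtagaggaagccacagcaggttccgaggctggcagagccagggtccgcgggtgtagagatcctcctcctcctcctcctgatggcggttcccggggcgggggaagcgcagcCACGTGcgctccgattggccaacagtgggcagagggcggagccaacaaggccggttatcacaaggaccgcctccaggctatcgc
Kcnn3: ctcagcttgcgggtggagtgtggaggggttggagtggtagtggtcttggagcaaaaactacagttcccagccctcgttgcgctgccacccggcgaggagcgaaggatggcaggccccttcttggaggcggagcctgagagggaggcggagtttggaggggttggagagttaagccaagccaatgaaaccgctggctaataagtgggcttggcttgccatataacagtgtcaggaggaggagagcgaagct
The Clcn1 window held 3 E-boxes, at -125, -101 and -69 from the start, and a run in which CTANNNNTAG at -51 overlaps TATAAA at -50. The Kcnj2 window held 2 E-boxes, at -206 and -84. The Kcnn3 window held none of the 3 motifs. Of the other 4 matched genes, Kcna7 held 3 E-boxes and Kcnc1 held 1, and Scn4a and Scn4b held none of the 3 motifs. Of 32817 RefSeq mouse promoter windows of this length, 66.2% held an E-box, 3.20% held CTANNNNTAG and 12.4% held TATAAA. These are matches of letters, not mapped binding sites.

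Values were compared on a log2 scale after adding 1 to the FPKM, in a limma fit of all 32 samples over the 22071 genes that reached 0.1 FPKM in at least 4 samples. A gene was called when its Benjamini-Hochberg adjusted p was under 0.05 and its change was at least 1.5-fold. Fold changes on this scale understate those of genes with low FPKM, so the ratio of mean FPKM is also given. In bulk tissue, fewer cells of a type and less RNA per cell cannot be told apart. The samples held 14199902 to 17561584 fragments each, as recovered from the FPKM, and the 8 channel genes had between 58 fragments (Kcnn3 at 0 d) and 8039 fragments (Scn4b at 0 d) in a sample. The first 3 d sample stood apart from the other samples of its group on the first principal component (-19.4 against 0.75 to 6.25), and it is named below where a value rests on it.

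Most of the channel genes fell within 1 d and stayed low. At 1 d, 5 of the 8 were called lower and none higher, where 2.49% of all genes tested were lower and 6.34% were higher. These 5 were also the only ones of the 8 with an unadjusted p under 0.05, and all genes were not counted at that threshold. At 3 d, 5 were lower and 2 higher, against 6.03% and 13.2% of all genes. At 5 d the counts were again 5 lower and 2 higher, against 3.86% and 14.9%. At 7 d, 5 were lower and 1 higher, against 4.1% and 15.4%, and at 14 d the same counts stood against 3.83% and 14.6%. At 21 d, 6 were lower and 1 higher, against 3.93% and 11.8%, and at 28 d the same counts stood against 4.1% and 14.2%. These shares of all genes depended on the scaling between samples. With median-ratio scaling, described with Scn4a, 5, 6, 5, 5, 7, 7 and 7 of the 8 genes were lower on the 7 days in turn, where 5.06%, 9.79%, 7.83%, 8.14%, 7.57%, 7.3% and 8.03% of all genes were. With the same scaling 0, 2, 1, 1, 1, 1 and 1 of the 8 were higher, where 3.93%, 8.31%, 6.6%, 7.03%, 6.6%, 6.41% and 6.75% of all genes were. As deposited, Scn4b, Clcn1, Kcnj2, Kcna7 and Kcnc1 were lower on all 7 days, Kcnn3 was higher on the 6 days from 3 d on, Kcnj11 was higher first and lower later, and Scn4a was not called on any day. The 7 comparisons share the 4 samples of 0 d.

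**Figure D1:**
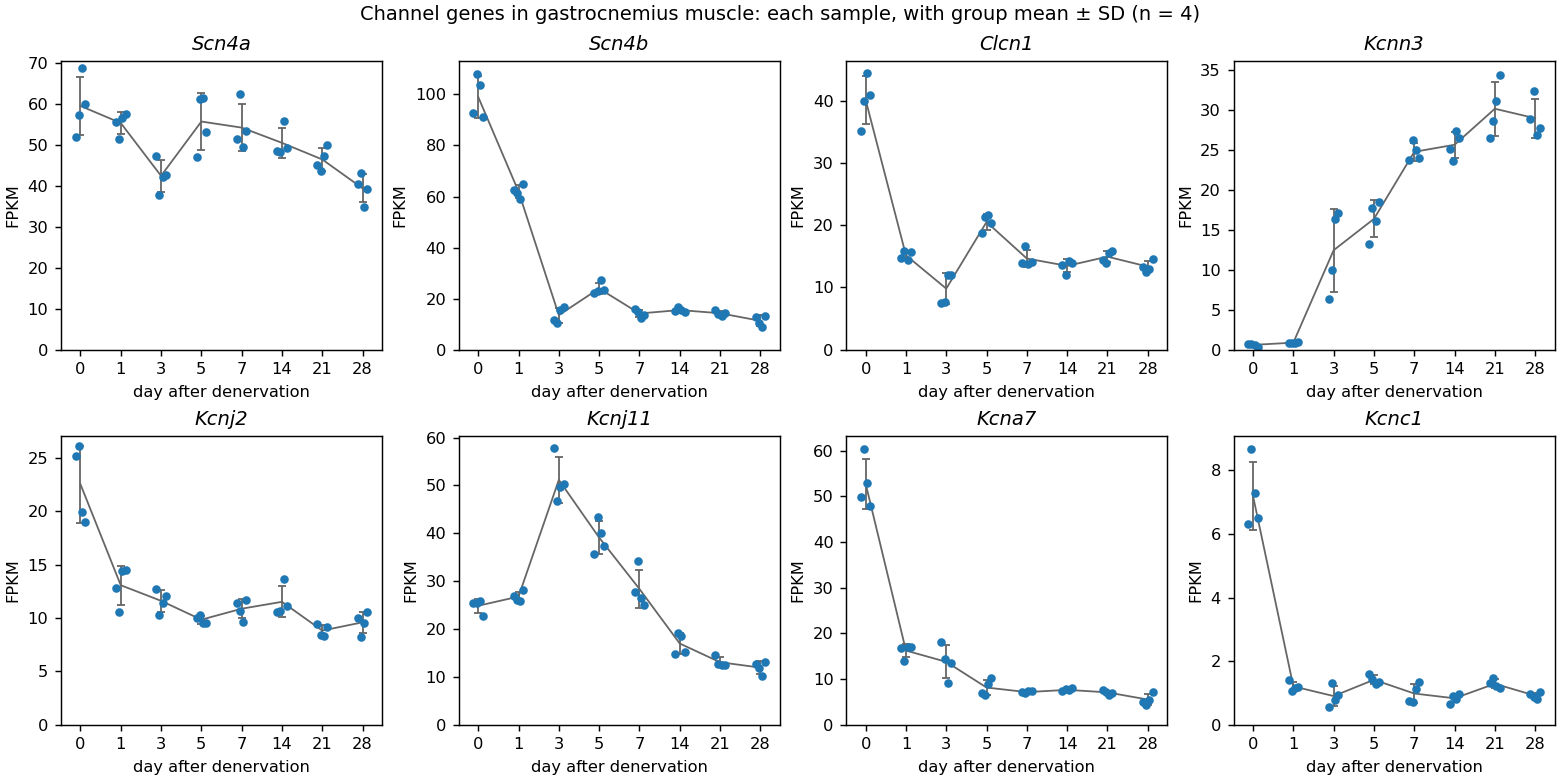
FPKM of the 8 channel genes (vertical axes, from 0) at each day after denervation (horizontal axis, days as categories), with 1 point for each sample and the mean ± SD of 4 samples joined by lines. Kcna7, Kcnc1 and Clcn1 drop at 1 d, Scn4b by 3 d, Kcnn3 climbs from 0.592 at 0 d to 28.9 at 28 d, and Kcnj11 peaks at 51.2 at 3 d.

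Scn4a, the pore of the adult sodium channel, kept most of its RNA. At 0 d its 4 samples held 52.0, 57.3, 68.8 and 59.9 FPKM. At 3 d they held 47.4, 37.8, 42.1 and 42.5, and at 28 d 40.3, 43.2, 34.9 and 39.2. The samples of 3, 21 and 28 d all lay below those of 0 d, while the samples of 1, 5, 7 and 14 d overlapped them. The mean at 28 d was 66.2% of that at 0 d, with a log2 fold change of -0.58 (SE 0.09, limma adjusted p = 3.92e-06), just short of the 1.5-fold needed for a call. At 3 d the log2 fold change was -0.48 (SE 0.09, limma adjusted p = 6.35e-05), and at 1 d it was -0.10 (limma adjusted p = 0.492). Ranked by mean, the groups ran 0, 5, 1, 7, 14, 21, 3 and 28 d, and the samples of every neighbouring pair in that order overlapped.

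The place of Scn4a relative to the threshold turned on the scaling between samples. As deposited, genes with a mean of at least 1 FPKM had a median log2 shift of 0.12 (1 d) to 0.32 (14 d) against 0 d, while genes of the mitochondrial genome took 14.5% to 18.2% of fragments at 0 d and 6.70% to 17.1% later. Median-ratio scaling, which sets the typical gene level between samples, brought this shift to between -0.04 and 0.01, and the share of calls that were higher went from between 68.7% and 79.5% to between 43.7% and 46.8%. With this scaling Scn4a was called lower on days 3, 14, 21 and 28, with log2 fold changes of -0.75, -0.62, -0.65 and -0.95. With TPM, which fixes the sum of values in each sample, its small differences at 1, 5 and 7 d had the other sign (0.02, 0.09 and 0.06), and no day was called. Rescaled without mitochondrial genes, Scn4a was called at 28 d (-0.69).

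Scn4b, the beta subunit, fell further and in steps. Its samples held 92.9, 108, 104 and 91.2 FPKM at 0 d, 62.4, 61.3, 59.2 and 64.9 at 1 d, and 11.5, 10.5, 15.5 and 16.6 at 3 d. No sample of 1 d reached the 0 d range, and no sample of 3 d reached the 1 d range. The log2 fold change against 0 d was -0.66 (SE 0.11, limma adjusted p = 3.13e-05) at 1 d, -2.80 (SE 0.11, limma adjusted p = 9.39e-18) at 3 d and -3.04 (SE 0.11, limma adjusted p = 2.3e-18) at 28 d. The call at 1 d was lost with TPM (-0.56). By 3 d the mean was 13.7% of that at 0 d, and by 28 d it was 11.4%. Between these days Scn4b partly came back at 5 d, when its samples held 22.4, 22.9, 27.1 and 23.5 FPKM, all above those of 3 d and of 7 d (16, 14.6, 12.3 and 13.7). The rise from 3 to 5 d was 0.80 on the log2 scale (limma adjusted p = 4.39e-06) and the fall from 5 to 7 d was -0.72 (limma adjusted p = 0.000343). From 7 d on, the means of 14.2, 15.5, 14.3 and 11.3 FPKM overlapped between neighbouring days.

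Clcn1, the chloride channel of the resting membrane, fell at once. Its samples held 35.2, 40.0, 44.5 and 41.0 FPKM at 0 d, 14.7, 15.9, 14.4 and 15.7 at 1 d, and 7.53, 7.69, 12 and 12 at 3 d. The highest sample of 1 d, 15.9, was below the lowest of 0 d, 35.2. The log2 fold change was -1.34 (SE 0.11, limma adjusted p = 5.09e-11) at 1 d and -1.95 (SE 0.11, limma adjusted p = 4.35e-15) at 3 d, where the mean was 24.4% of that at 0 d. At 5 d Clcn1 was higher again, at 18.8, 21.3, 21.7 and 20.3 FPKM, which is a log2 step of 1.02 from 3 d (limma adjusted p = 2.92e-08) with no overlap. From 7 to 28 d the means stayed between 13.4 and 15.0 FPKM, and the log2 fold change at 28 d was -1.52 (SE 0.11, limma adjusted p = 1.37e-12). The step from 1 to 3 d, -0.61 on the log2 scale, was under 1.5-fold without the first 3 d sample (-0.51) or the second (-0.52).

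Kcnj2, the inward rectifier, fell by 1 d and was lower on every later day. The 0 d samples held 25.2, 26.1, 19.9 and 19.0 FPKM, and those of 1 d held 12.9, 10.6, 14.4 and 14.5. None of the 28 later samples reached the lowest value of 0 d, since their highest was 14.5. The log2 fold change was -0.74 (SE 0.10, limma adjusted p = 1.04e-06) at 1 d and lay between -0.89 and -1.25 on the later days. At 28 d, with 10.1, 8.27, 9.55 and 10.6 FPKM, it was -1.14 (SE 0.10, limma adjusted p = 1.54e-10) and the mean was 42.6% of that at 0 d. After 1 d no step between successive days was called for this gene.

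Kcnj11, the KATP pore, was the gene that changed direction. Its samples held 25.4, 25.4, 25.9 and 22.7 FPKM at 0 d, 27.0, 26.1, 26 and 28.1 at 1 d, and 57.9, 46.8, 49.6 and 50.4 at 3 d. The 3 d samples were about 2-fold above those of 0 d (ratio of means 2.06), and none overlapped the earlier groups. The log2 fold change at 3 d was 1.01 (SE 0.09, limma adjusted p = 2.67e-10), and 0.95 without the first 3 d sample, which was the highest of its group. After that peak the group means on days 5, 7, 14, 21 and 28 were 39.1, 28.4, 17.0, 13.1 and 11.9 FPKM. At 28 d the samples held 12.6, 11.8, 10.1 and 13.2 FPKM, all below those of 0 d, with a log2 fold change of -1.0 (SE 0.09, limma adjusted p = 3.63e-10). The difference between 28 and 7 d was itself large, -1.18 on the log2 scale (SE 0.09, limma adjusted p = 3.45e-10), and the step from 7 to 14 d was -0.71 (limma adjusted p = 2.06e-05).

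For Kcnj11 the rise at 3 d and the fall at 21 and 28 d were called under every scaling tried, whereas calls on the days between depended on the scaling. At 5 d its log2 fold change of 0.63 (limma adjusted p = 1.53e-06) went to 0.24 with median-ratio scaling (limma adjusted p = 0.0712), to 0.51 when rescaled without mitochondrial genes and to 0.58 without the second 5 d sample, none of them called. At 14 d it was -0.53 (limma adjusted p = 1.94e-05), under 1.5-fold as deposited, but it was called with median-ratio scaling (-0.91) and when rescaled without mitochondrial genes (-0.68). At 1 and 7 d the differences of 0.10 and 0.18 were not called, and with median-ratio scaling they had the other sign (-0.10 and -0.20).

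Kcna7 and Kcnc1, the voltage-gated potassium channels, lost most of their RNA by 1 d. Kcna7 samples held 49.9, 60.4, 53.0 and 47.9 FPKM at 0 d and 16.8, 14, 17.1 and 17.1 at 1 d, with no overlap. The log2 fold change was -1.64 (SE 0.14, limma adjusted p = 1.68e-10), and the mean was 30.8% of that at 0 d. Kcna7 then went on falling, to 15.4% at 5 d and to 10.4% at 28 d, where the samples held 4.99, 4.36, 5.46 and 7.22 FPKM and the log2 fold change was -3.06 (SE 0.14, limma adjusted p = 1.05e-16). The step from 3 to 5 d was called, at -0.68 on the log2 scale (limma adjusted p = 0.000447), although the ranges overlapped, and it was -0.54 and under 1.5-fold without the first 3 d sample. No later step of Kcna7 was called.

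Kcnc1 was the least abundant of the falling genes and showed most of its fall at 1 d. The 0 d samples held 6.30, 8.67, 7.30 and 6.49 FPKM, and those of 1 d held 1.41, 1.06, 1.17 and 1.19. The groups were far apart, with a log2 fold change of -1.89 (SE 0.11, limma adjusted p = 8.64e-14) and a mean at 1 d of 16.8% of that at 0 d. On the later days the means lay between 0.831 FPKM (14 d) and 1.41 FPKM (5 d), and the log2 fold change between -1.76 and -2.16. The samples of 14 d, at 0.662, 0.907, 0.795 and 0.961 FPKM, all lay below those of 1 d, by -0.27 on the log2 scale (limma adjusted p = 0.0474), which is under 1.5-fold. No step between successive days after 1 d was called, except that the step from 3 to 5 d was called with a pseudocount of 0.1 (0.65, against 0.36 with a pseudocount of 1) and with no fold threshold. Samples of these groups held as few as 81 fragments of Kcnc1, so the later differences rest on few fragments.

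Kcnn3, the SK3 channel, was the only one of the 8 genes called higher on every day from 3 d on. Its samples held 0.758, 0.660, 0.602 and 0.35 FPKM at 0 d and 0.788, 0.833, 0.885 and 0.991 at 1 d, then 6.38, 9.89, 16.3 and 17.1 at 3 d. The ranges of 0 and 1 d just failed to meet, yet the log2 difference of 0.24 was not called (limma adjusted p = 0.331). At 3 d the log2 fold change was 2.99 (SE 0.17, limma adjusted p = 9.67e-15), and 3.25 without the first 3 d sample, which was the lowest of its group. The level went on up to 23.7, 26.3, 24.9 and 24.0 FPKM at 7 d and 28.8, 32.4, 26.8 and 27.7 at 28 d. The ratio of means to 0 d was 21 at 3 d, and on days 7, 21 and 28 it was 41.7, 50.8 and 48.8, and the log2 fold change at 28 d was 4.24 (SE 0.17, limma adjusted p = 7.62e-18). From 7 d on, the means of 24.7, 25.6, 30.1 and 28.9 FPKM overlapped between neighbouring days.

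**Figure D2:**
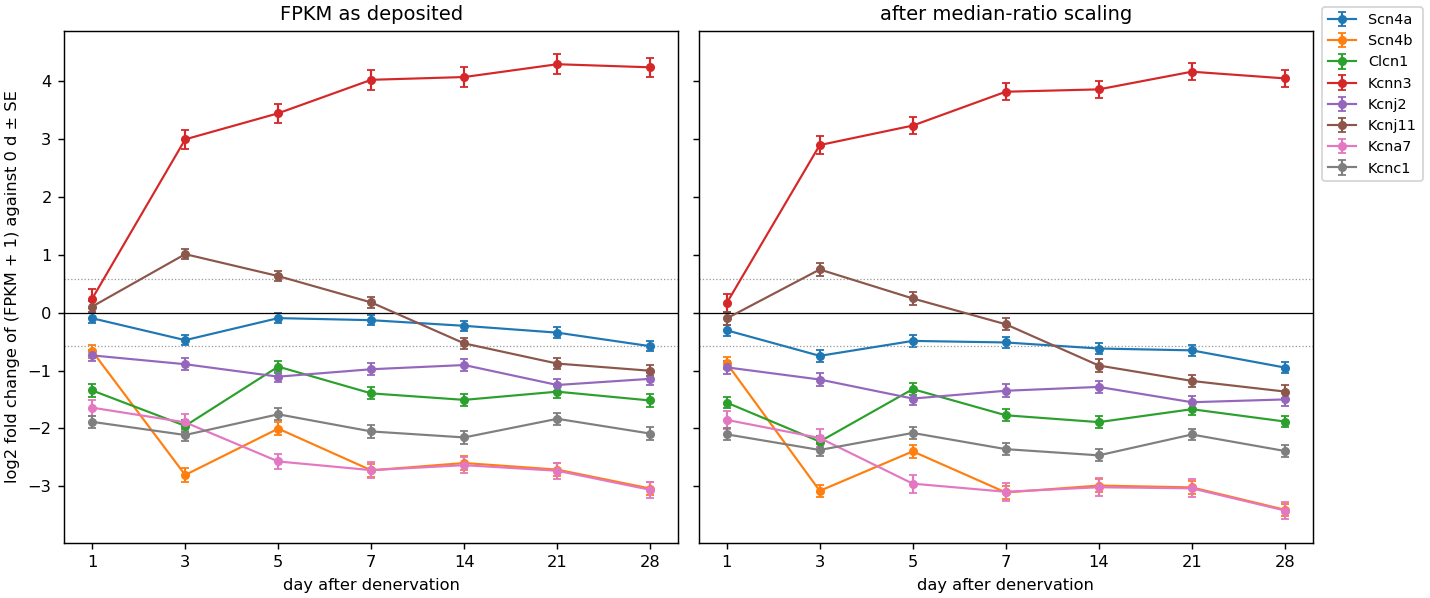
Log2 fold change of (FPKM + 1) against 0 d with its standard error (vertical axis) at each later day (horizontal axis), as deposited (left) and after median-ratio scaling (right); dotted lines mark 1.5-fold. Kcnn3 reaches 4.24 at 28 d and the falling genes lie between -1.0 and -3.06, and the right panel lies lower throughout, with Scn4a at -0.95 at 28 d.

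Steps between successive days were called mostly up to 7 d. From 1 to 3 d, 4 of the 8 genes were called (Scn4b and Clcn1 lower, Kcnn3 and Kcnj11 higher), where 10.6% of all genes were called in either direction. From 3 to 5 d, 3 were called (Scn4b and Clcn1 higher, Kcna7 lower), against 5.76%. From 5 to 7 d only Scn4b was called, against 0.657%, and from 7 to 14 d only Kcnj11, against 0.634%. From 14 to 21 d limma called 0 of the 8, against 0.453%, and from 21 to 28 d it again called 0, against 0.199%. The unadjusted p was under 0.05 for 3 and for 4 of the 8. These percentages are for calls, and the share of all genes with such an unadjusted p was not counted.

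Over 14, 21 and 28 d, the 12 late samples were compared with the 4 of 0 d. Of the 8 genes, 6 were called lower and 1 higher, where 4.26% of 20243 genes tested were lower and 14.5% were higher. For all but Scn4a, every late sample lay beyond every sample of 0 d. For these genes the exact permutation test of the group labels, two-sided, gave the smallest p it can give here, 0.00055. How many of all genes were separated in this way was not counted, so it is not shown to be particular to these genes. Without a fold threshold, limma called 57.5% of all genes tested in this comparison. The mean of Scn4b went from 99.0 ± 8.27 FPKM (SD, n = 4) to 13.7 ± 2.26 FPKM (SD, n = 12), that of Kcna7 from 52.8 ± 5.47 to 6.74 ± 1.17, and that of Kcnc1 from 7.19 ± 1.08 to 1.01 ± 0.236. Kcnn3 went from 0.592 ± 0.174 FPKM to 28.2 ± 3.07. The log2 fold change of Scn4a over these days was -0.39 (SE 0.10, limma adjusted p = 0.0021), not called, with an exact permutation p of 0.0011, and median-ratio scaling took it to -0.74, which was called.

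The KATP channel is built of pores and sulfonylurea receptors, and its subunit genes had different time courses. Kcnj8, the other pore gene, was lower at 3 d (5.29 FPKM against 11.4 at 0 d, log2 fold change -0.98) while Kcnj11 was higher, and stayed lower to 28 d (-0.81). Abcc8, a receptor of the pancreatic type, went from 0.175 FPKM at 0 d to 2.82 at 5 d and 0.915 at 28 d, with a log2 fold change of 1.70 at 5 d (limma adjusted p = 1.2e-16). Abcc9, the receptor of the muscle type, had log2 fold changes of 0.59 to 0.68 at 5, 7, 14 and 21 d, which were called as deposited, but median-ratio scaling took them to between 0.24 and 0.30, none called. The calls given for Kcnj8 and Abcc8 held under each of the 3 other scalings.

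Other excitability genes were taken from lists of 143 symbols, of which 140 were in the table and 106 passed the filter. On days 1, 3, 5, 7, 14, 21 and 28, limma called 7, 13, 15, 18, 18, 13 and 15 of them higher and 9, 11, 8, 7, 7, 7 and 9 lower. With median-ratio scaling, where 107 passed the filter, more were lower than higher on each day, with 5, 8, 7, 9, 9, 9 and 9 higher and 12, 16, 14, 14, 14, 13 and 14 lower, and over all genes too the share of calls that were higher dropped below that of lower ones. As deposited, 6.60% of the 106 genes were higher and 8.49% lower at 1 d, against 6.34% and 2.49% of all genes tested. At 28 d the shares were 14.2% and 8.49%, against 14.2% and 4.1%. On the days between, 12.3% to 17.0% were higher and 6.60% to 10.4% lower, against 11.8% to 15.4% and 3.83% to 6.03%. With median-ratio scaling, 4.67% to 8.41% were higher and 11.2% to 15% lower, against 3.93% to 8.31% and 5.06% to 9.79%. The median of the lists at 28 d was 0.06 on the log2 scale, beside 0.14 for all genes tested and -1.33 for the 8 channel genes. Kcng4, a silent subunit of the voltage-gated potassium channels, fell from 9.53 FPKM to 0.101 at 3 d and was 0.355 at 28 d. Kcnk5, a background potassium channel, rose from 1.04 to 23.5 FPKM at 14 d, and Kcnq5 rose from 2.56 to 14.7 at 7 d. Kcnj12, an inward rectifier like Kcnj2, fell from 12.8 to 5.53 FPKM at 1 d and 3.44 at 28 d (log2 fold change -1.63, limma adjusted p = 1.3e-14). Atp1b1, a subunit of the sodium-potassium pump, was at 11.8 FPKM at 1 d against 70.8 at 0 d and at 42.3 at 28 d. Ano5, a chloride channel family member, fell from 32.2 to 3.16 FPKM at 7 d.

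**Figure D3:**
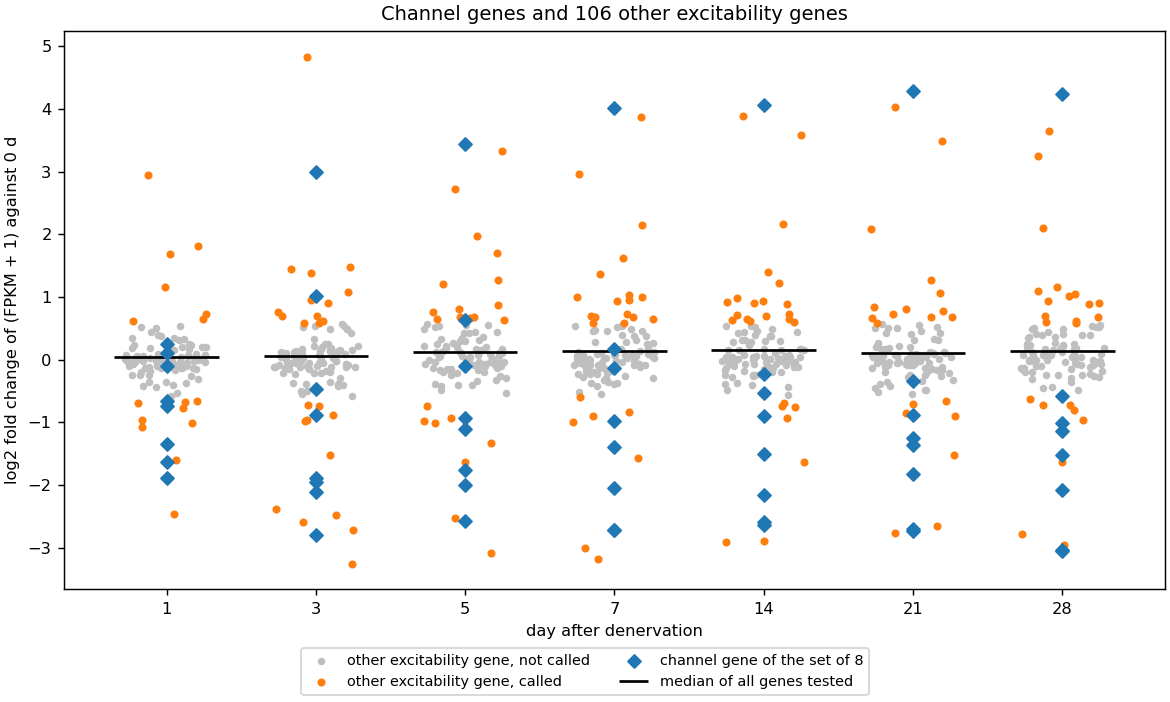
Log2 fold change of (FPKM + 1) against 0 d (vertical axis) by day, for the 8 channel genes (diamonds) and 106 other excitability genes (points, orange where called), with the median of all genes tested as a line. The channel genes lie below that line on each day except for Kcnn3 and, up to 7 d, Kcnj11.

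Genes with the most similar pattern were named by the Pearson r of log2(FPKM + 1) over the 32 samples, among genes with a mean of at least 1 FPKM. These samples share their groups, so r measures likeness of the time courses only. Kcnn3 was closest to Chrna1 (r = 0.992), Ttc9 (0.990) and Chrng (0.987), of which Chrna1 and Chrng encode subunits of the acetylcholine receptor. Scn4b was closest to Tcea3 (0.97), Kcna7 to Slc41a3 (0.959), Kcnc1 to Sec14l5 (0.958), Kcnj11 to Rasd2 (0.962), Clcn1 to Sema6c (0.935) and Kcnj2 to Sdhc (0.904). Scn4a had the weakest neighbour, Rnf123 (0.838).

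Summed levels of marker genes of other cell types changed in the same muscles. The sum of 8 macrophage genes was 71.2 to 102 FPKM at 0 d and 220 to 536 at 3 d, where the first 3 d sample was the lowest. The sum of 8 Schwann cell genes was 131 to 281 FPKM at 0 d and 20.6 to 53.8 at 3 d. The sum of the muscle fibre genes was 19814 to 22812 at 3 d. The sum of 7 smooth muscle and pericyte genes was 196 to 212 FPKM at 0 d, 108 to 147 at 3 d and 132 to 145 at 28 d, beside the lower Kcnj8 on those days. Of these 7 genes, only 1 was called lower at 3 d and only 1 at 28 d, and none was called higher. Nerve markers were near the floor throughout, at a summed 0.383 to 2.00 FPKM over the 8 of 9 measured. The part of these changes in the values of the channel genes and of Kcnj8 was not tested.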

How the data were processed

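RNA sequencing of GAS muscles from C57BL/6 mice (32 samples in 8 groups of 4) was analysed from 1 table. The authors deposited FPKM values, 1 per gene and sample, for 33397 genes. The submitters' processing notes list CASAVA, HISAT2 2.1.0, DESeq2 and GRCm38 with no role given, and the aligner settings, the counter and the use of strand are not given in the sources used here. The labels' protocol names TruSeq libraries, and the study's methods name another kit. Merged exon lengths of GENCODE mouse release 21 matched 33356 genes and turned the FPKM back into fragments, of which 99.3% to 99.4% of values under 200 were whole within 0.05. The totals were 14199902 to 17561584 fragments per sample. FPKM is not a count, so no count model was run. Each column names a group but no numbered sample, so columns were used as 4 replicates of their group, and p-values measure the spread between these samples. Replicates had a Pearson r of at least 0.963 over 13405 genes, and no columns were identical. No column was left unused.

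Linear models of log2(FPKM + 1) were fitted in R 4.3.3 by limma 3.58.1, using a trend of variance with level in eBayes, over genes with at least 0.1 FPKM in at least 4 samples, with Benjamini-Hochberg adjustment, as contrasts of a fit of all 32 samples, and as a separate fit of the 16 samples of 0, 14, 21 and 28 d. A gene was called at an adjusted p under 0.05 and 1.5-fold. Single values were also tested by exact, two-sided permutation over samples. On simulated data for 7 against 0 d, with 20065 genes tested, the fit recovered 165 of 200 (82.5%) 2-fold changes and called 2 unchanged genes. The simulation used an assumed spread, raised and lowered equal numbers of genes and held no shift in scaling between samples. It therefore cannot show errors that come from the scaling. Python 3.11.15, numpy 2.4.6, pandas 2.3.3 and matplotlib 3.10.9 were used for the other steps. Alternatives covered the pseudocount, the filter, the scaling, the variance trend, the samples in the fit, the fold threshold and leaving out each sample. The genes of the set and the lists, and the other named genes, were chosen with earlier results of these data known. Named genes beyond the set were the 20 with the largest called change among other excitability genes (at most 4 per list, mean of at least 1 FPKM), 8 further genes of interest, and the 3 genes most like each member. Some of the genes so chosen are left out of the text.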

Additional observations from a re-analysis of the deposited data

Results flagged for a closer look

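Single samples stood apart from the other samples of their group in 5 of the 64 gene and group combinations looked at, where chance marks about 1 in 20 groups. The highest Scn4a sample at 14 d held 55.9 FPKM beside 48.4 to 49.2 in the others. The highest Clcn1 sample at 7 d held 16.7 FPKM beside 13.7 to 14.2. For Kcnj11 the lowest 0 d sample held 22.7 FPKM beside 25.4 to 25.9, and the highest 21 d sample held 14.5 FPKM beside 12.4 to 12.8. The lowest Kcna7 sample at 1 d held 14 FPKM beside 16.8 to 17.1.

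For Kcnj11 the levels at 28 and 7 d differed, by -1.18 on the log2 scale (limma adjusted p = 3.45e-10). All 4 samples of 28 d lay below all 4 of 7 d. Neither day had a control group of its own, so denervation and time cannot be told apart in this difference.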

How the results depend on the processing

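The number of the 8 channel genes called against 0 d stayed within 1.5 times its value under every alternative except the 2-fold threshold at 1 d (3). Leaving out single samples gave 5 at 1 d, 7 at 3 d, 6 to 7 at 5 d, 6 at 7 d, 6 to 7 at 14 d, 7 at 21 d, 7 to 8 at 28 d and 7 over the late days. For the steps, a 2-fold threshold gave 2 from 1 to 3 d, 1 from 3 to 5 d, 0 from 5 to 7 d and 0 from 7 to 14 d, where it called 3.57%, 1.62%, 0.127% and 0.172% of all genes. No fold threshold gave 6 from 3 to 5 d, 3 from 5 to 7 d and 1 from 14 to 21 d, where it called 23.8%, 1.96% and 1.61%. Leaving out single samples gave 3 to 4 from 1 to 3 d, 2 to 4 from 3 to 5 d, and the same counts as the full set for the other steps. The Kcnn3 step from 3 to 5 d, 0.45 and not called in the full set, rested on the 3 d samples: it was 0.19 without the first (limma adjusted p = 0.346), which stood apart, and 0.60 and 0.62, called, without the third or the fourth. Scn4a at 28 d was called with pseudocount 0.1 (-0.59), without the first or second 0 d sample (-0.64 and -0.59) and without the first or second 28 d sample (-0.59 and -0.62). Kcnj11 at 14 d was called without the second 14 d sample (-0.59). Signs turned only for uncalled differences: Scn4a with TPM at 1, 5 and 7 d (0.0166, 0.0937, 0.0623), Kcnj11 with median-ratio scaling at 1 and 7 d (-0.0999, -0.2013), and, on leaving out single samples, the steps of Scn4a from 5 to 7 d (-0.1119 to 0.0128), Kcnj2 from 7 to 14 d (-0.0053 to 0.1069) and Kcnn3 from 21 to 28 d (-0.1106 to 0.0105).

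The other excitability genes called at 1, 3, 5, 7, 14, 21 and 28 d numbered 27, 51, 48, 44, 47, 40 and 46 of 106 with pseudocount 0.1 (25.5% to 48.1%, against 16.4% to 33% of all genes). With TPM they numbered 38, 40, 38, 32 and 37 of 118 from 5 d on (27.1% to 33.9%, against 22.4% to 29.9%). A 2-fold threshold left 8, 11, 11, 9, 8, 8 and 10 (7.55% to 10.4%, against 2.67% to 7.58%), and no fold threshold gave 38, 59, 54, 60, 57, 48 and 57 (35.8% to 56.6%, against 29.4% to 47.7%). The causes were not tested, beyond the thresholds' own construction. No paired analysis was possible because the columns are tied to a group and not to a numbered sample. Among the 8 channel genes, depth limits Kcnc1 and early Kcnn3 most, with as few as 81 and 58 fragments in a sample. Other named genes held fewer at times: Kcng4 held 3 to 13 fragments at 3 d, and Abcc8 held 16 to 29 at 0 d.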
